A study of Drosophila melanogaster with 6 samples.

Results

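Peptidoglycan recognition proteins (PGRPs) are the sensors and scavengers of bacterial cell wall in the fly. The 10 genes described here were taken by name from the known family, 5 with the letter S for short secreted proteins (PGRP-SA, PGRP-SB1, PGRP-SC1a, PGRP-SC2 and PGRP-SD) and 5 with the letter L for long forms (PGRP-LA, PGRP-LB, PGRP-LC, PGRP-LE and PGRP-LF). They are 10 of 15886 rows of the table. The 3 other PGRP genes of the fly, PGRP-SB2, PGRP-SC1b and PGRP-LD, were below 1 FPKM in at least 5 of the 6 libraries. PGRP-LD shares 3563 bp of exons with Pmi on the same strand, which was listed at 0 in every library. How reads there were counted is not given, so the low PGRP-LD values cannot be read as absence. FPKM, the unit of every level below, is the number of fragments normalised to transcript length and library size.

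RNA came from adult Drosophila melanogaster on day 7 after the drug RU486 had been added to the food. All flies carried TubGS, a drug-inducible GeneSwitch driver under a tubulin promoter, which is active in most tissues. In the RNAi-GLAD group the driver expressed an RNA interference construct named GLAD (genotype TubGS>RNAi-GLAD), and in the RNAi-Ctrl group a construct against GFP (TubGS>RNAi-GFP). Both groups received RU486. Each group had 3 libraries from pools of 100 brains, sequenced as 150 bp read pairs, and the labels name the tissue as the head. Where a group has 3 values in a row, they are those of libraries 1, 2 and 3 in that order. Neither sex nor age beyond the day of induction is stated, and the gene behind the name GLAD is not given, so no targeted gene could be used to check the labels. Nothing says that the libraries of a group came from separate cultures, so p-values measure the spread between these libraries, which may be technical.

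Peptidoglycan reaches the fly immune system along a pair of routes. PGRP-SA and PGRP-SD work in the hemolymph upstream of the Toll pathway, whereas PGRP-LC at the cell surface and PGRP-LE inside the cell start the Imd pathway, which ends in the NF-kB factor Rel. Several relatives limit the response: the amidases PGRP-SB1, PGRP-SC1a, PGRP-SC2 and PGRP-LB cut peptidoglycan, and PGRP-LF is a membrane protein without a signalling tail that inhibits PGRP-LC. In adult flies fat body, gut, epithelia and blood cells are known sites of PGRP expression.

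The low values implied library totals of 22.0 to 29.5 M fragments, and a single read in a transcript of 2000 bp was worth 0.0169 to 0.0227 FPKM. All 11 photoreceptor genes examined were above 0 in every library, ninaE at 25152 to 26327 FPKM, so eye tissue was present in the samples labelled as brains in the protocol. A pair of libraries went against their labels: the noncoding RNA lncRNA:CR40469 was at 1935, 2198 and 5.86 FPKM in the RNAi-Ctrl libraries and at 4.20, 4.77 and 1718 FPKM in the RNAi-GLAD libraries. By that transcript the library labelled RNAi-Ctrl 3 stood with RNAi-GLAD 1 and 2, and the library labelled RNAi-GLAD 3 with RNAi-Ctrl 1 and 2. Each tested PGRP gene, and each other gene called, is therefore given for the 6 libraries as labelled and for the 4 libraries numbered 1 and 2, with the difference between the libraries numbered 3 beside it. Directions in the 4 libraries rest on the labels of those libraries alone.

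The family divided into secreted genes that varied between libraries and long genes that mostly did not. The summed level of the 10 genes was 434, 448 and 824 FPKM in the RNAi-Ctrl libraries and 557, 731 and 400 FPKM in the RNAi-GLAD libraries. The 5 long genes together stayed between 108 and 119 FPKM in all 6 libraries, so the differences in the sum came from the secreted ones, at 287 to 716 FPKM. In RNAi-GLAD 3 and RNAi-Ctrl 1 the long genes made up 28.4% and 26.3% of the family's summed level, and in RNAi-Ctrl 3 they made up 13.1%. Over the 6 libraries the coefficient of variation was 28.5% to 68.8% for the 4 secreted genes with a mean of at least 1 FPKM and 4.10% to 19.4% for the long genes, beside a median of 8.88% over all 9631 rows at that level. In a bulk sample a smaller number of cells of a type and less RNA per cell cannot be told apart.

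**Figure D1:**
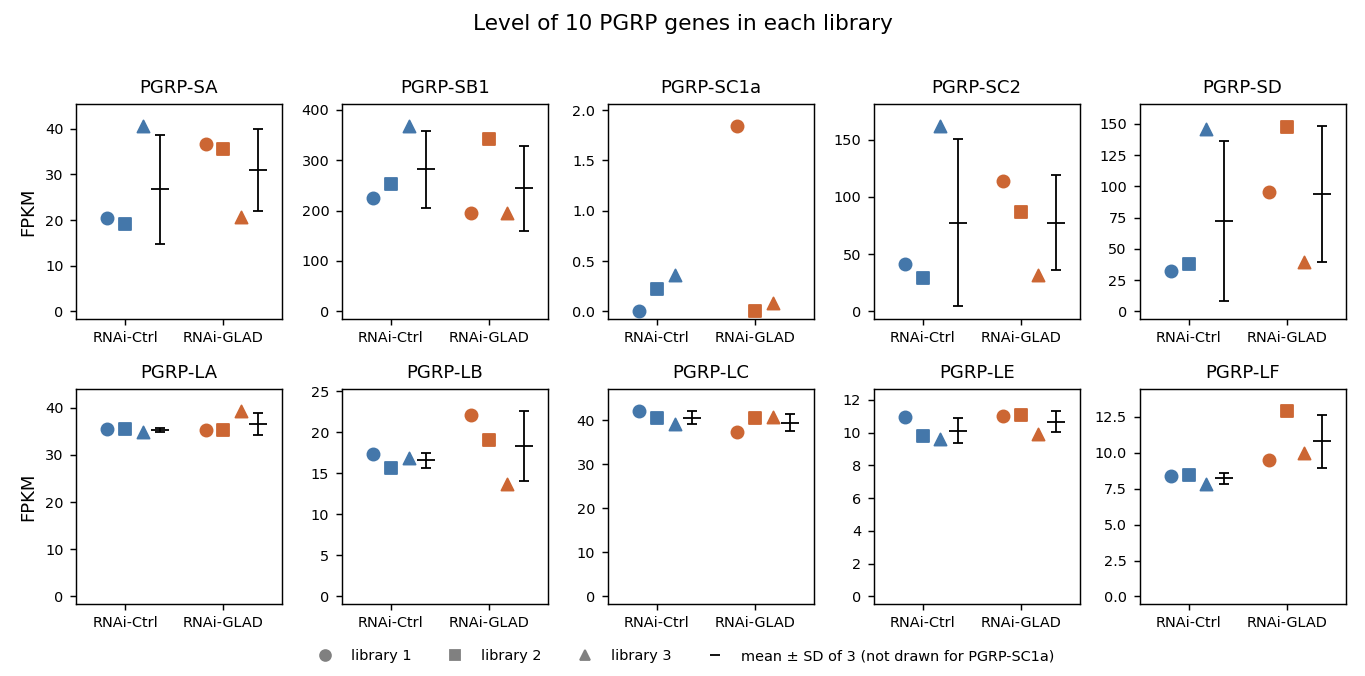
Level in FPKM (vertical axes, linear and different for each gene) of the 10 PGRP genes in the 3 RNAi-Ctrl (blue) and 3 RNAi-GLAD (orange) libraries, with marker shapes for the library number and black bars for the mean ± SD of 3 libraries. For PGRP-SA, PGRP-SC2 and PGRP-SD the triangle of RNAi-Ctrl 3 lies near or above RNAi-GLAD 1 and 2, and that of RNAi-GLAD 3 near RNAi-Ctrl 1 and 2; PGRP-LA, PGRP-LC and PGRP-LE are nearly level.

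The most abundant member was PGRP-SB1, with a mean of 263 FPKM over the 6 libraries, above PGRP-SD (83.0 FPKM) in 6 of 6 libraries and with ranges that did not overlap. PGRP-SD and PGRP-SC2 (77.5 FPKM) could not be ordered, since PGRP-SD was the higher in 3 of 6 libraries. Next came PGRP-LC (40.0 FPKM), PGRP-LA (35.9 FPKM) and PGRP-SA (28.9 FPKM). PGRP-LC exceeded PGRP-LA in 6 of 6 libraries although their ranges overlapped, and PGRP-LA exceeded PGRP-SA in only 3 of 6. PGRP-LB (17.4 FPKM) lay above PGRP-LE (10.4 FPKM) and PGRP-LF (9.51 FPKM) in level, and the latter pair overlapped. PGRP-SC1a came last, at 0 to 1.84 FPKM.

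PGRP-SA (FBgn0030310, X chromosome, 11561643 to 11562779 in BDGP6), the circulating sensor of Gram-positive peptidoglycan, was at 20.4, 19.2 and 40.6 FPKM in the RNAi-Ctrl libraries and at 36.7, 35.6 and 20.6 FPKM in the RNAi-GLAD libraries. The 6 values fell into a narrow high set and a narrow low set, with RNAi-Ctrl 3 among the high and RNAi-GLAD 3 among the low. PGRP-SA rose in libraries 1 and 2, where RNAi-Ctrl averaged 19.8 ± 0.899 and RNAi-GLAD 36.2 ± 0.777 FPKM (SD, n = 2 each). The log2 fold change was 0.84 ± 0.05 (SE, limma, adjusted p = 0.0135). Between the libraries numbered 3 the log2 difference was -0.94. As labelled, the groups overlapped and the log2 fold change was 0.25 ± 0.35 (adjusted p = 0.999).

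PGRP-SD (FBgn0035806, 3L, 7651180 to 7651900), a secreted partner in the sensing of Gram-positive bacteria, was high in the same libraries as PGRP-SA, with larger differences. It was at 32.3, 37.7 and 146 FPKM in the RNAi-Ctrl libraries and at 95.3, 148 and 39.3 FPKM in the RNAi-GLAD libraries. RNAi-Ctrl 3 reached the level of RNAi-GLAD 2, and RNAi-GLAD 3 that of RNAi-Ctrl 2. Its mean rose 3.47-fold in libraries 1 and 2, from 35.0 ± 3.81 to 121 ± 37.1 FPKM, a log2 fold change of 1.74 ± 0.23 (adjusted p = 0.0390), while the libraries numbered 3 differed by -1.87. With all 6 libraries the log2 fold change was 0.53 ± 0.72 (adjusted p = 0.999). PGRP-SD lies within the span of CG32373, with no shared exon, and its last 35 bp overlap CG7492 on the other strand, which was flat at 30.6 to 33.9 FPKM.

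PGRP-SC2 (FBgn0043575, arm 2R), a secreted amidase best known from the gut, had the widest range of the 9 genes tested, 5.52-fold from lowest to highest. Its levels were 41.6, 29.3 and 162 FPKM in the RNAi-Ctrl libraries and 113, 87.2 and 31.7 FPKM in the RNAi-GLAD libraries. The highest library was RNAi-Ctrl 3, and RNAi-GLAD 3 lay between RNAi-Ctrl 1 and 2. PGRP-SC2 rose 2.83-fold in libraries 1 and 2, from 35.5 ± 8.66 to 100.4 ± 18.6 FPKM, a log2 fold change of 1.48 ± 0.22 (adjusted p = 0.0448). The libraries numbered 3 differed by -2.32, and over the 6 libraries the log2 fold change was 0.22 ± 0.75 (adjusted p = 0.999).

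PGRP-SB1 (FBgn0043578, 3L, 16727299 to 16727989), an amidase induced by infection, followed the other secreted genes in part. Like them it was high in RNAi-Ctrl 3 and RNAi-GLAD 2 and low in RNAi-GLAD 3, but it was low in RNAi-GLAD 1. PGRP-SB1 was at 225, 252 and 367 FPKM in the RNAi-Ctrl libraries and at 194, 342 and 195 FPKM in the RNAi-GLAD libraries. Here RNAi-GLAD 1 was the lowest library, next to RNAi-GLAD 3, whereas for PGRP-SA, PGRP-SD and PGRP-SC2 the library RNAi-GLAD 1 was among the 3 highest. The log2 fold change was 0.11 ± 0.29 in libraries 1 and 2 (95% confidence interval -0.68 to 0.91, adjusted p = 0.857), -0.91 between the libraries numbered 3, and -0.23 ± 0.28 as labelled (adjusted p = 0.999). The ratio of PGRP-SD to PGRP-SB1 shows how they parted: it was 0.144, 0.150 and 0.397 in the RNAi-Ctrl libraries, and 0.490, 0.432 and 0.201 in the RNAi-GLAD libraries. PGRP-SB2 ends 10 bp away on the other strand and was at 0 to 0.262 FPKM, so the level at this locus belonged almost wholly to PGRP-SB1.

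PGRP-SC1a (FBgn0043576, arm 2R), another gut amidase, was barely detected and did not enter the tests. It was listed at 0 in RNAi-Ctrl 1 and RNAi-GLAD 2, at 0.225 and 0.364 FPKM in RNAi-Ctrl 2 and 3, at 0.0812 FPKM in RNAi-GLAD 3 and at 1.84 FPKM in RNAi-GLAD 1, where 1 read was worth 0.0729 FPKM. Its close copy PGRP-SC1b, 3125 bp away, was likewise highest in RNAi-GLAD 1 (2.55 FPKM) and at 0.0694 to 0.524 FPKM elsewhere. No source used here says how reads common to both copies were counted. Of 15 midgut digestive genes 12 were also highest in RNAi-GLAD 1, with a sum over the list of 656 FPKM there and 116 to 293 FPKM in the other libraries, and their part in the PGRP-SC1a value was not tested. Beside PGRP-SC2 these genes divided. In RNAi-GLAD 2, which held 87.2 FPKM of PGRP-SC2, the trypsin gene alphaTry was at 0.0516 FPKM and 8 of the 15 were listed at 0. The amylase genes were high in the same 3 libraries as PGRP-SC2: Amy-p was at 64.0, 70.6 and 137 FPKM in the RNAi-Ctrl libraries and at 128, 149 and 46.3 FPKM in the RNAi-GLAD libraries, and Amy-d had the same highest library, RNAi-GLAD 2, at 75.8 FPKM.

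The receptors that start the Imd response were level. PGRP-LC (FBgn0035976, 3L, 9338810 to 9348336), its main surface receptor, was at 42.1, 40.5 and 39.1 FPKM in the RNAi-Ctrl libraries and at 37.3, 40.5 and 40.7 FPKM in the RNAi-GLAD libraries. PGRP-LE (FBgn0030695, X, 15801153 to 15803880), the intracellular sensor, was at 11.0, 9.78 and 9.61 FPKM and at 11.0, 11.1 and 9.92 FPKM in the same order. For both genes the groups overlapped with all 6 libraries. In libraries 1 and 2 the log2 fold change was -0.09 for PGRP-LC (95% confidence interval -0.25 to 0.08, adjusted p = 0.459) and 0.08 for PGRP-LE (-0.11 to 0.28, adjusted p = 0.548). As labelled it was -0.04 and 0.07 (adjusted p = 0.999 for both), and the libraries numbered 3 differed by 0.06 and 0.04. The level of PGRP-LE stands beside a neighbour that was not level: sordd2, 1990 bp away, reached 27.5 and 29.1 FPKM in libraries 1 and 2 of RNAi-Ctrl, 25.7 FPKM in RNAi-GLAD 3, and was listed at 0 elsewhere.

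PGRP-LA (FBgn0035975, 3L, 9334332 to 9338336), a long form reported to promote Imd signalling in barrier epithelia, lies 473 bp upstream of PGRP-LC. It was at 35.4, 35.5 and 34.8 FPKM in the RNAi-Ctrl libraries and at 35.2, 35.3 and 39.2 FPKM in the RNAi-GLAD libraries. Apart from RNAi-GLAD 3 the values spanned less than 1 FPKM. The log2 fold change in libraries 1 and 2 was -0.0076 (95% confidence interval -0.12 to 0.11, adjusted p = 0.936) that of all 6 libraries was 0.05 ± 0.06 (adjusted p = 0.999), and the libraries numbered 3 differed by 0.17.

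PGRP-LB (FBgn0037906, 3R, 11452849 to 11460552), the amidase that dampens Imd signalling, was at 17.4, 15.6 and 16.8 FPKM in the RNAi-Ctrl libraries and at 22.1, 19.1 and 13.7 FPKM in the RNAi-GLAD libraries. RNAi-GLAD 1 and 2 were the highest libraries and RNAi-GLAD 3 the lowest, but RNAi-Ctrl 3 stayed with the other controls. This differs from PGRP-SA, where RNAi-Ctrl 3 was the highest library. The log2 fold change in libraries 1 and 2 was 0.30 ± 0.10 and did not pass (adjusted p = 0.162). The libraries numbered 3 differed by -0.28, and as labelled the log2 fold change was 0.11 ± 0.17 (adjusted p = 0.999).

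PGRP-LF (FBgn0035977, 3L, 9349609 to 9351489), the inhibitor of PGRP-LC encoded 1272 bp behind it, was the only one of the 9 tested genes whose groups did not overlap as labelled. It was at 8.40, 8.46 and 7.80 FPKM in the RNAi-Ctrl libraries and at 9.51, 12.9 and 9.97 FPKM in the RNAi-GLAD libraries. All RNAi-GLAD libraries were above all RNAi-Ctrl libraries, led by RNAi-GLAD 2. Of all 9631 rows tested, 2.82% were higher in RNAi-GLAD without overlap. The log2 fold change was 0.34 ± 0.12 as labelled (unadjusted p = 0.0243, adjusted p = 0.999), 0.36 ± 0.15 in libraries 1 and 2 (adjusted p = 0.240) and 0.32 between the libraries numbered 3. It fell short of the threshold in both fits. Without RNAi-GLAD 1 the log2 fold change was 0.56 (adjusted p = 0.0478), a fit of RNAi-GLAD 2 alone, the library with the highest PGRP-LF, in which that library is assumed to vary like the controls. Without RNAi-GLAD 2 it was 0.16 (adjusted p = 0.341). PGRP-LF and the gene UGP share 602 bp of exons on opposite strands, and without known strand handling their reads cannot be told apart there. UGP was at 167, 220 and 153 FPKM in the RNAi-Ctrl libraries and at 108, 154 and 221 FPKM in the RNAi-GLAD libraries. Its part in the PGRP-LF values was not tested.

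Set side by side, 0 of the 9 tested members passed as labelled, where limma called 0% of 9631 rows, with 1 member (PGRP-LF) and 112 rows (1.16%) at an unadjusted p under 0.05. In libraries 1 and 2, 3 members passed, all higher and all secreted, where 5.45% of 9661 rows passed in either direction and 4.10% as higher in RNAi-GLAD. The groups of 2 did not overlap for 8 of the 9 members, where 56.5% of all rows did not. The median log2 fold change was 1.16 over the 4 secreted genes tested and 0.08 over the 5 long genes, beside 0.02 over all rows. For 7 of the 9 members the libraries numbered 3 differed with the opposite sign, as for 75.1% of all rows tested, and PGRP-LE and PGRP-LF were the exceptions. Leaving out 1 of the 4 libraries leaves an arm of 1, assumed to vary like the other group, and 1 residual degree of freedom. Without RNAi-Ctrl 1 or without RNAi-Ctrl 2 none of the 3 passed (adjusted p = 0.137 to 0.238), and all genes called fell from 527 to 1. Their log2 fold changes were then 0.88 and 0.79 for PGRP-SA, 1.63 and 1.84 for PGRP-SD, and 1.73 and 1.24 for PGRP-SC2. PGRP-SC2 was also not called without RNAi-GLAD 1 or RNAi-GLAD 2 (1.30 and 1.67, adjusted p = 0.0674 and 0.0749). PGRP-SD and PGRP-SC2 were also lost without a filter on low values (adjusted p = 0.0851 and 0.0943) and without the mean-variance trend (0.0733 and 0.0823), and PGRP-SD with TMM scaling (0.0593). TMM scaling without weights lost both, at 0.0620 for PGRP-SD and 0.0508 for PGRP-SC2, and kept both with another choice of reference library.

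**Figure D2:**
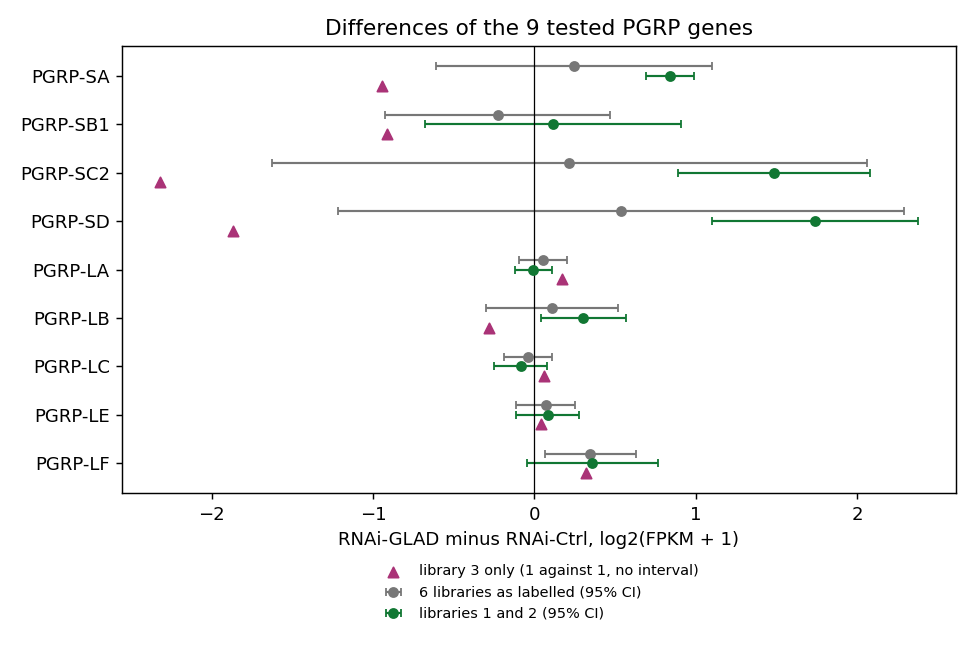
Difference in log2(FPKM + 1), RNAi-GLAD minus RNAi-Ctrl (horizontal axis), for the 9 tested PGRP genes: grey, 6 libraries as labelled; green, libraries 1 and 2; bars, 95% confidence intervals from limma; triangles, RNAi-GLAD 3 minus RNAi-Ctrl 3 with 1 library each. The green intervals of PGRP-SA, PGRP-SC2 and PGRP-SD lie above 0 with their triangles between -0.94 and -2.32. That of PGRP-LB also lies above 0 (0.04 to 0.57), with its triangle at -0.28. PGRP-LF has all 3 values between 0.32 and 0.36, and its grey interval lies above 0 (0.06 to 0.63). These intervals are not adjusted for the number of rows tested.

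**Figure D3:**
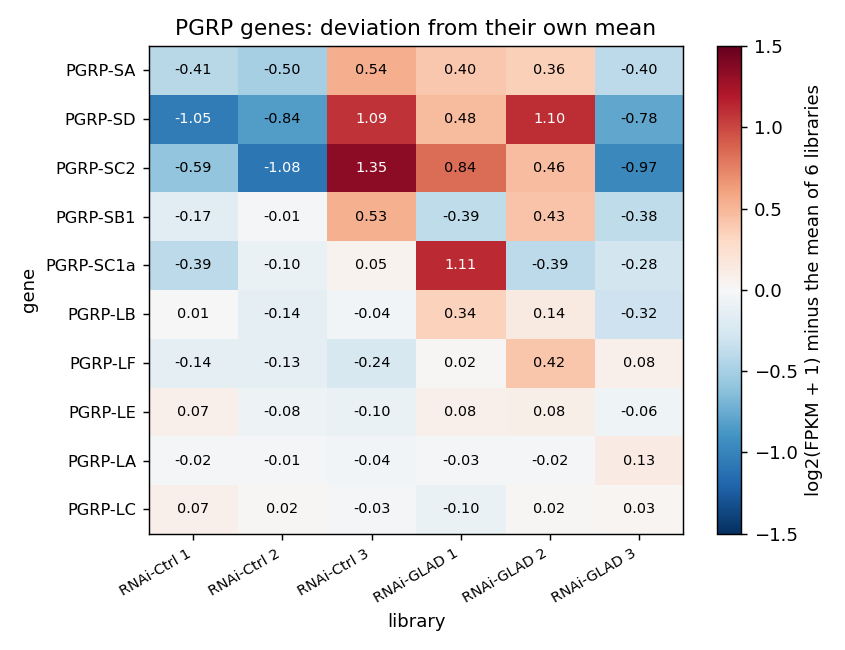
Deviation of log2(FPKM + 1) from each gene's own mean over the 6 libraries (colour and printed value), for the 10 PGRP genes (rows) in each library (columns). PGRP-SA, PGRP-SD and PGRP-SC2 are above their mean in RNAi-Ctrl 3 and in both RNAi-GLAD 1 and 2, PGRP-SB1 is below it in RNAi-GLAD 1 (-0.39), and PGRP-SC1a is above it mainly in RNAi-GLAD 1 (1.11).

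Across the 6 libraries, as a description with points that share library and depth, PGRP-SA followed PGRP-SC2 (Pearson's r = 0.978) and PGRP-SD (0.966) more closely than PGRP-SB1 (0.539). The r of PGRP-SB1 was 0.680 with PGRP-SD and 0.532 with PGRP-SC2. The genes outside the family with the profiles most like that of PGRP-SA were NimC4 (0.999), r (0.997) and La (0.997), among 2310 varying genes compared. For PGRP-SD they were Cyp9b1, Cyp9b2 and CG33468 (0.998, 0.998 and 0.997). Such profiles were common: 214 of the 2310 genes reached 0.95 with PGRP-SA, 172 with PGRP-SD and 73 with PGRP-SC2, for which CycD, an unannotated transcript and Drsl4 came first (0.986, 0.985 and 0.981).

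The profile of PGRP-SB1 was rarer. Only 5 genes reached 0.95 with it, led by GNBP-like3 (0.980), Def (0.968), which encodes the antimicrobial peptide Defensin, and CG13659 (0.955). Def was at 11.4, 12.4 and 23.1 FPKM in the RNAi-Ctrl libraries and at 8.05, 27.4 and 9.88 FPKM in the RNAi-GLAD libraries, low in RNAi-GLAD 1 as PGRP-SB1 was. The genes most like PGRP-LB were Vps28 (0.992), Ccp84Ag (0.988) and CG32425 (0.980), with 17 genes at 0.95 or more. PGRP-LF was most like CG33110 (0.936), CG34437 (0.888) and Cyp18a1 (0.816), and 0 genes reached 0.95.

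Beyond the receptors, some Imd pathway genes were higher in RNAi-GLAD 1 and 2. Over all 9661 rows tested in libraries 1 and 2, 4.10% passed as higher in RNAi-GLAD and 5.45% in either direction. Of 13 Imd signalling genes tested there, 2 rose and 0 fell: Rel, the NF-kB factor (0.81 ± 0.05, adjusted p = 0.0116), and key, a subunit of the kinase complex that acts on Rel (0.30 ± 0.05, adjusted p = 0.0472). Tak1 (0.17) and Fadd (0.36) did not pass. Of 8 Imd inhibitors tested, pirk rose (1.08 ± 0.09, adjusted p = 0.0195), a protein that binds PGRP-LC and holds it back, and dnr1 (0.22), POSH (0.45) and casp (0.28) did not pass. The level of pirk was 6.83, 6.71 and 18.0 FPKM in the RNAi-Ctrl libraries and 14.2, 16.7 and 5.50 FPKM in the RNAi-GLAD libraries. It was thus high in the same 3 libraries as PGRP-SA. Rel was at 47.8, 47.1 and 58.7 FPKM and at 85.6, 82.8 and 36.6 FPKM in the same order, with RNAi-Ctrl 3 nearer to the other controls than to RNAi-GLAD 1 and 2. The libraries numbered 3 differed by -0.67 for Rel, -0.05 for key and -1.55 for pirk, and the labelled log2 fold changes were 0.32, 0.19 and 0.20 (adjusted p = 0.999 for each).

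For Toll, 1 of 12 extracellular cascade genes rose and 0 fell in libraries 1 and 2, beside 4.10% of all rows called higher. The call was spz, the ligand of Toll (0.39 ± 0.06, adjusted p = 0.0497; 0.11 as labelled and -0.45 between the libraries numbered 3), while GNBP3 (-0.46), a sensor of fungal glucans, Hayan (0.49) and grass (0.20), proteases of the cascade, did not pass. Of 7 intracellular Toll genes 0 passed in limma, with pll (0.20), dl (0.13), Myd88 (0.17) and Tl (0.08) the nearest. An unadjusted p under 0.05 was reached by 2 of the 7, beside 2409 of all 9661 rows tested in libraries 1 and 2. The median log2 fold change of these lists was 0.16 for Imd signalling, 0.18 for the Imd inhibitors, -0.02 for the Toll cascade and 0.09 for intracellular Toll genes, beside 0.02 over all rows. As labelled, the medians were 0.06, 0.08, -0.02 and 0.05, and 0 genes of these lists passed in limma. At an unadjusted p under 0.05 there was 1, of Imd signalling, beside 112 of all 9631 rows.

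Antimicrobial peptides, the outputs of both pathways, had mixed signs in libraries 1 and 2 and one sign in the libraries numbered 3. Of 19 tested in the former, 2 rose, Drsl4 (1.19 ± 0.13) and Drsl5 (0.81 ± 0.12), and 0 fell, beside 4.10% of all rows called higher. There were 11 positive and 8 negative signs, with a median of 0.09. CecA2 (-2.71, adjusted p = 0.0728) and BomS3 (0.69, adjusted p = 0.0781) were next. Between the libraries numbered 3, all 19 were lower in RNAi-GLAD, Drsl4 by a log2 difference of -1.53 and Drsl5 of -0.88. That compares 1 library with 1, and 4843 of all 9661 rows were lower there. As labelled, 5 were positive and 14 negative with a median of -0.31, and Drsl4 was at 0.28 and Drsl5 at 0.24. In that fit 0 passed in limma (1 at an unadjusted p under 0.05, beside 112 of all 9631 rows). Of 7 lysozymes, which also cut peptidoglycan, only LysX passed the filter, and it did not change detectably (0.01, adjusted p = 0.987).

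**Figure D4:**
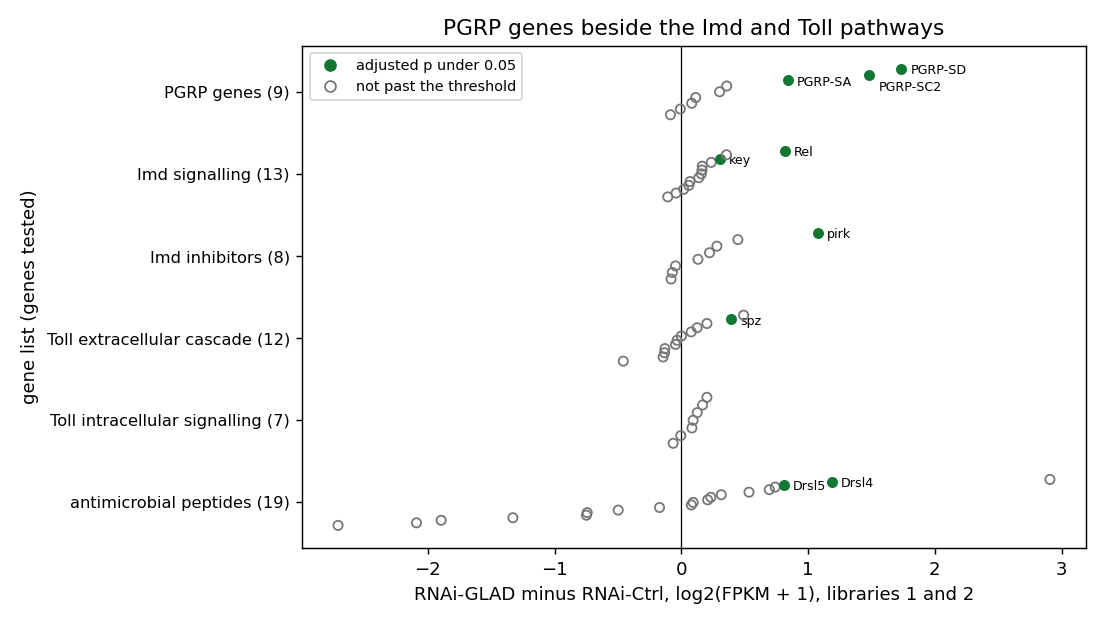
Log2 fold change on the log2(FPKM + 1) scale, RNAi-GLAD minus RNAi-Ctrl in the libraries numbered 1 and 2 (horizontal axis), of each tested gene of the PGRP family and of 5 pathway lists (vertical axis, number tested in brackets); filled points had an adjusted p under 0.05 in limma. PGRP-SD (1.74) and PGRP-SC2 (1.48) lie furthest to the right of the filled points, and the antimicrobial peptides spread to both sides.

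Markers of tissues that express PGRPs were read beside these results. Of 12 fat body genes 11 were found and 10 were above 0 in every library (Fbp2 was at 0 in 3), and their summed level was 4079 to 8884 FPKM in RNAi-Ctrl and 5374 to 11358 FPKM in RNAi-GLAD, mostly Obp99b. In libraries 1 and 2, 1 of 9 fat body genes tested rose, Apoltp (0.80 ± 0.07, adjusted p = 0.0213; 0.22 as labelled and -0.94 between the libraries numbered 3), and 0 fell. Of all rows tested there, 4.10% were called higher. The signs of the 9 fat body genes were mixed, 4 positive and 5 negative, with a median of -0.11. Apoltp was at 21.5, 21.5 and 40.2 FPKM in the RNAi-Ctrl libraries and at 35.9, 40.8 and 20.5 FPKM in the RNAi-GLAD libraries. It was high in the same libraries as PGRP-SA, though not in the same order within them. The levels of apolpp were 453, 530 and 553 FPKM and 357, 468 and 592 FPKM. The yolk protein genes set RNAi-Ctrl 1, 1 of the 2 controls of the smaller fit, apart: Yp1 was at 296 FPKM there and at 0.735 to 3.28 FPKM elsewhere, Yp2 at 98.6 and 0.371 to 2.25 FPKM, and Yp3 at 343 and 53.5 to 61.2 FPKM. Their log2 fold changes in libraries 1 and 2 were -4.12, -3.48 and -1.36, and none passed (adjusted p = 0.309 to 0.428). The sex of the flies is not stated, and the source of the yolk protein difference was not tested. Of 12 hemocyte genes 11 were found, all above 0 in every library, with sums of 470 to 534 FPKM in RNAi-Ctrl and 470 to 533 FPKM in RNAi-GLAD. Of 10 tested in libraries 1 and 2, 0 passed in limma. An unadjusted p under 0.05 was reached by 1 of them, beside 2409 of all 9661 rows. Of the 15 midgut genes, gammaTry was listed at 0 throughout, and 1 of 13 tested in libraries 1 and 2 rose, Amy-p (1.03 ± 0.10, adjusted p = 0.0221; 0.17 as labelled and -1.55 between the libraries numbered 3). The list had 3 positive and 10 negative signs with a median of -0.53, among them alphaTry (-2.25) and betaTry (-1.85), which did not pass (adjusted p = 0.640 and 0.676). The part of these tissues in the levels of PGRP-SA, PGRP-SD and PGRP-SC2 was not tested.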

How the data were processed

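Messenger RNA of 6 fly head libraries was analysed from a table of FPKM values that the authors deposited, with 15886 rows. Per the submitters' processing notes, reads were handled with TopHat, and both BDGP6 and dm6 appear as genome builds. Counting tool, strand, multiple matches and annotation: not given in the sources used here. Of 15682 FlyBase IDs, 15001 matched a symbol. Coordinates and exon lengths are from the Ensembl release 115 annotation of BDGP6.

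Values were tested as log2(FPKM + 1) for rows with a mean of at least 1 FPKM, in R 4.3.3 with limma 3.58.1 (lmFit, eBayes with trend, two-sided, Benjamini-Hochberg adjustment over all rows tested, threshold 0.05). Fold changes on this scale understate changes of low genes. Trimmed-mean (TMM) scaling, with inverse-variance weights, was an alternative only. Its weights had the usual form but were computed from FPKM, not from read counts. TMM scaling without weights, under either of 2 choices of reference library, was added after seeing the data. The fits were also run on simulated data with independent noise, in which every library carried the effect of its label. That simulation cannot speak to libraries that go against their labels, and no result here rests on it. Library totals are those at which low values times exon length are most often whole reads. 60.9% to 63.1% were whole within 0.05 reads. Means carry the SD. No pair of libraries shared a value above 0 in any row (0 rows). Figures used Python 3.11.15 and matplotlib 3.10.9.

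The genes, lists and the choice to repeat each fit without the libraries numbered 3 were made with earlier results of these data known. Named genes are all family members, up to 4 per pathway list with the smallest p in libraries 1 and 2, and the 3 genes most like each varying member by Pearson's r.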

Additional observations from a re-analysis of the deposited data

How the results depend on the processing

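Alternatives were other pseudocounts (0.1 and 0.5), filters, scalings, no trend, a threshold of 0.01, a replicate block and leaving out libraries. As labelled, 0 genes and 0 members were called under each of these, also without each library in turn (0 to 0), except without both libraries numbered 3, where 527 genes and 3 members passed. In libraries 1 and 2 the 527 genes became 254 without a filter, 285 with TMM scaling (PGRP-SD lost), 165 without the trend, 17 at the threshold of 0.01 and 1 to 329 without each library. The 3 members became 1 (PGRP-SA) without a filter and 1 without the trend, 0 at the threshold of 0.01, and 0 to 3 without each library. TMM scaling without weights, chosen after seeing the data, gave 246 genes and 1 member (PGRP-SA), and with another reference library 434 genes and all 3 members. With the replicate block the counts were 512 genes (380 shared) and the same 3 members, and 0 as labelled. Deviations of same-numbered libraries from the labelled group means correlated at -0.354, -0.404 and -0.460, so the numbers were not taken as pairs. These correlations cannot be read apart from the libraries numbered 3, which go against their labels.

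Of 153 member values as labelled, 143 kept their sign and their side of the threshold, 3 came to pass and 7 changed sign. Without both libraries numbered 3, PGRP-LA turned to -0.0076 and PGRP-SB1 to 0.11. Without each library in turn, PGRP-LB ranged from -0.035 to 0.29, PGRP-LC from -0.063 to 0.0018 and PGRP-SC2 from -0.27 to 0.94. In libraries 1 and 2, 109 of 126 were kept, 15 lost their call, 1 (PGRP-LF) gained it, and PGRP-SB1 ranged from -0.29 to 0.52 without each library. The cause was not tested. Values of PGRP-SC1a rest on few reads at this depth.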
